A study of Arabidopsis thaliana with 24 samples.

Results

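The 5 GH3 genes described here, GH3.1 (AT2G14960), GH3.2 (AT4G37390), GH3.3 (AT2G23170), GH3.5 (AT4G27260) and GH3.6 (AT5G54510), encode enzymes that join the auxin indole-3-acetic acid to amino acids. They were taken by locus from the 37686 genes of both deposited expression tables. Leaf blades of Arabidopsis thaliana were cut from the first rosette pair of 12-d-old seedlings and kept on B5 medium with no sucrose at 22 °C in continuous light, and whole blades were frozen for RNA at once (t0), at 10 and at 30 min, then at 1 and 2 h, at 4 and 8 h, and finally at 12 h. The coi1 explants carried the coi1-2 allele of COI1, which encodes the F-box part of the jasmonate receptor, and gave 2 libraries at each time (16 in all). The WT explants were Col-0, with 1 labelled library at each time (8 in all). All seedlings of both genotypes had been raised on half-strength MS medium with 1% sucrose under days of 16 h light and 8 h dark, and no hormone was added to any group. The labels do not say whether the replicate libraries came from separate plants, so the spread between these libraries may be technical. The p-values of the coi1 fit and of the time windows rest on that spread. In the WT fit they rest on departures from a smooth curve instead. In the fits of genotype over all times and of genotype by time, such spread is mixed with departures from the fitted model.

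GH3 enzymes use ATP to link a hormone to an amino acid. Aspartate and glutamate conjugates of auxin lead towards breakdown, while alanine and leucine conjugates can be split again by amidohydrolases of the ILR1 family. Auxin itself switches these genes on through ARF factors bound to auxin response elements, so that a rise in auxin feeds back on its own level. In hypocotyls GH3.3, GH3.5 and GH3.6 are known to promote adventitious root initiation, and in detached leaves an early jasmonate wave and a later build-up of auxin near the cut both precede the new root.

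All 5 genes have 1 annotated transcript of 3 exons in TAIR10.1, the RefSeq copy of the TAIR10 build used by the authors. GH3.1 lies at chr2:6451319-6453797 on the minus strand, GH3.2 at chr4:17579618-17582022 on the plus strand, GH3.3 at chr2:9863855-9866562 on the minus strand, GH3.5 at chr4:13653579-13656285 on the plus strand and GH3.6 at chr5:22130964-22133688 on the minus strand. By coding sequence the closest pairs were GH3.5 with GH3.6, at 84.1% identity, and GH3.2 with GH3.3, at 81.4%, against 66.1% for the most distant pair, GH3.1 with GH3.5. The longest run of identical bases shared by 2 transcripts was 56 for GH3.2 and GH3.3 and 42 for GH3.5 and GH3.6. Reads inside such runs cannot be assigned with certainty, and the read length was not given in the sources used here. No annotated protein-coding gene overlapped the 300 bases before the start of any member. Overlap of other genes with the members themselves was not examined.

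The 300 bases before the annotated start of the 4 members that entered a test are shown because they differ in whether they hold the letters of the auxin response element. Capitals mark TGTCTC, the classical element, and CACGTG, the G-box, each searched on both strands with no overlap between hits. The sequences run 5′ to 3′ on the strand of the gene and come from RefSeq TAIR10.1: chr4:17579318-17579617 for GH3.2, chr2:9866563-9866862 for GH3.3, chr4:13653279-13653578 for GH3.5 and chr5:22133689-22133988 for GH3.6.
GH3.2: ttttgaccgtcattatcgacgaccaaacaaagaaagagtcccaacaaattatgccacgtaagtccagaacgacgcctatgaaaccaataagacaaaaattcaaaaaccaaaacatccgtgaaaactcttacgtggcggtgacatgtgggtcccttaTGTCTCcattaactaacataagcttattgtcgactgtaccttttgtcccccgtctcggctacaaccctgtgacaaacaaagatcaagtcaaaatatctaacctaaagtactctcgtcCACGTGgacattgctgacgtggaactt
GH3.3: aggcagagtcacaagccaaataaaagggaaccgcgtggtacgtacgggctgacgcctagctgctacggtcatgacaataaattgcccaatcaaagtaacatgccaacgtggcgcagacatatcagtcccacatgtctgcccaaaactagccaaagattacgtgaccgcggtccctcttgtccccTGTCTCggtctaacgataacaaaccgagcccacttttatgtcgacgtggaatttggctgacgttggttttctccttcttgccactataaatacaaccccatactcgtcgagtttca
GH3.5: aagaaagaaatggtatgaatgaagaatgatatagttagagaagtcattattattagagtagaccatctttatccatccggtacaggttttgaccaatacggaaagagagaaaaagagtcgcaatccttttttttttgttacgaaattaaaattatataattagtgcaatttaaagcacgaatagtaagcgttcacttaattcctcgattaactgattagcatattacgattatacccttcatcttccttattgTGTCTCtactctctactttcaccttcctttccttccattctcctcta
GH3.6: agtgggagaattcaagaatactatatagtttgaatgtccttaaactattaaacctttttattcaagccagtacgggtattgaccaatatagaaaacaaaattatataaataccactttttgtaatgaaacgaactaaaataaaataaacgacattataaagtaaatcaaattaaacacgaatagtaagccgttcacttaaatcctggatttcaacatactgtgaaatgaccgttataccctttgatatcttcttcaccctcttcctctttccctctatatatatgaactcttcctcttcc

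TGTCTC was found in 3 of the 5 members, with its first base at -144 in GH3.2, -116 in GH3.3 and -47 in GH3.5. The same letters occur in 12.97% of 27443 promoter windows of this length. GH3.1 and GH3.6 held none in this window, no member held the variant TGTCGG (4.91% of windows), and the G-box was found at -27 in GH3.2 (7.09% of windows). These matches describe letters and not sites in use.

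Values are TPM, an abundance scaled by gene length and by the total of each library. The deposited TPM keep no trace of sequencing depth, so the counting error behind low values is unknown. Per library, 17019 to 17840 genes were at 1 TPM or more, and the top 10 genes held 8.94% to 14.2% of all TPM. The 2 coi1 libraries of a time stood apart most at 30 min, with a root mean square difference over genes of 1.04 on the log2 scale, and at t0, with 0.69, against 0.32 to 0.50 for the other pairs. The COI1 transcript cannot check the genotype label, since it was present in both genotypes (13.1 to 23.3 TPM in coi1, against 8.65 to 25.95 in WT). JAZ10, a jasmonate-induced repressor gene, ranged from 1.16 to 6.90 TPM in coi1 libraries. In WT it stood at 110 TPM at 30 min and 311 TPM at 1 h. The WT libraries of the other times, at 1.70 to 6.22 TPM, lay within the coi1 range. JAZ10 therefore sets apart the WT libraries of 30 min and 1 h alone. The 5 leaf photosynthesis markers summed to 45952 to 80301 TPM in coi1 and 47654 to 66506 TPM in WT, while the 5 root markers summed to at most 1.39 TPM in coi1 and 0.88 TPM in WT and the 3 shoot meristem markers to at most 0.11 TPM in coi1 and 0.13 TPM in WT. In whole-blade RNA a smaller number of expressing cells and less RNA per cell cannot be told apart.

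The 5 genes were expressed at low levels. Their summed TPM ran over 4.58, 10.1 and 18.5 (lowest, median and highest library) in coi1 and over 3.43, 7.90 and 15.4 in WT. GH3.5 and GH3.6 together made up a median of 74.0% of that sum in coi1 and 89.4% in WT. The remainder was mostly GH3.3, with a median share of 22.9% in coi1 and 7.79% in WT. GH3.1 and GH3.2 stayed below 2 TPM in every library.

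**Figure D1:**
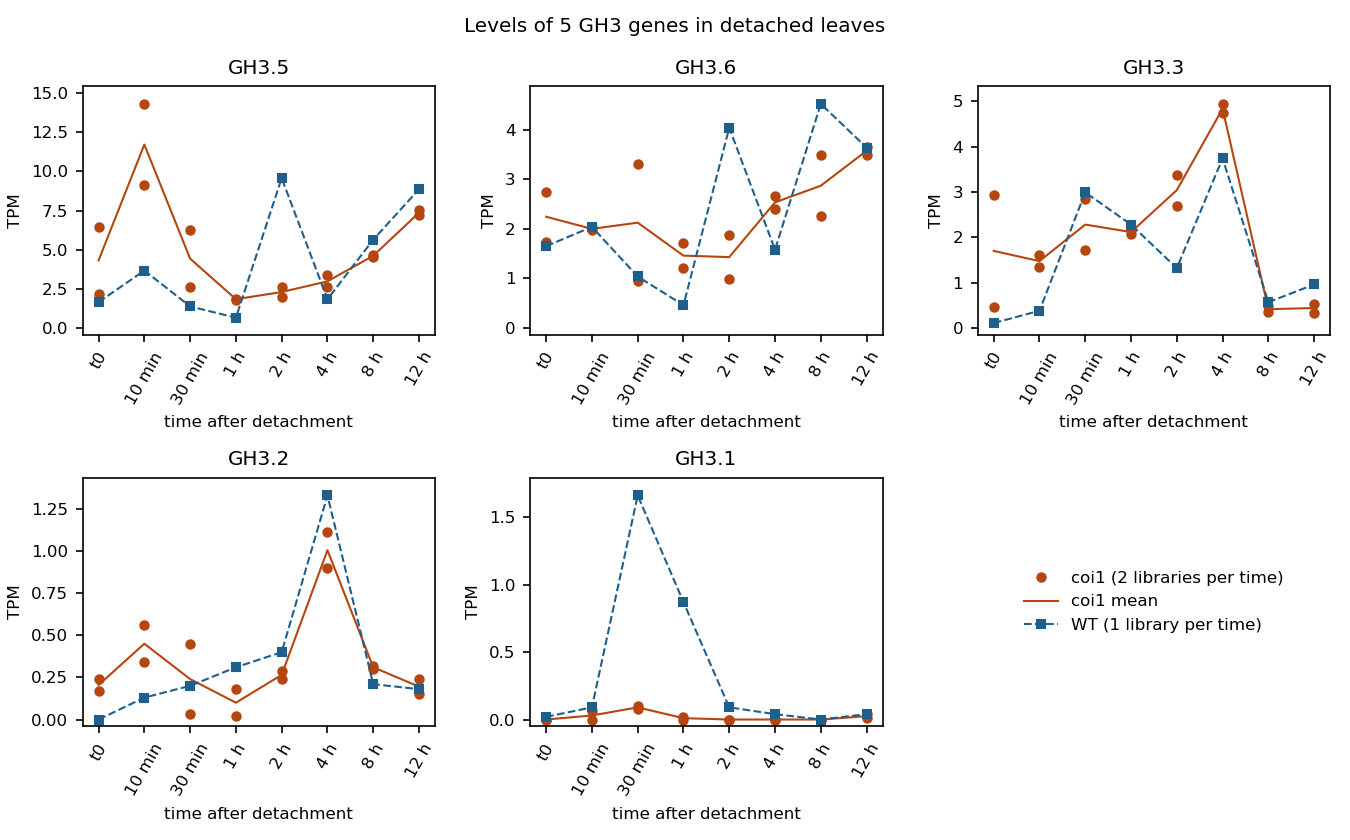
Level (TPM, linear axes that differ between panels) of each GH3 gene by time after detachment; points are single libraries, the solid line is the mean of 2 coi1 libraries and the dashed line joins the single WT libraries. GH3.3 and GH3.2 were highest at 4 h in both genotypes, GH3.5 peaked at 10 min in coi1 and at 2 h in WT, and GH3.1 passed 0.10 TPM in WT alone.

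GH3.5, whose enzyme accepts salicylic acid as well as auxin in vitro, was the most abundant member on average, and its highest coi1 values were those of 10 min. In the coi1 libraries, replicate 1 before replicate 2, it stood at 6.43 and 2.20 TPM (t0), 14.31 and 9.12 (10 min), 6.23 and 2.63 (30 min), 1.88 and 1.80 (1 h), 1.99 and 2.61 (2 h), 3.36 and 2.60 (4 h), 4.54 and 4.69 (8 h), 7.22 and 7.51 (12 h). Both 10 min libraries lay above all other coi1 libraries, both 12 h libraries above the remaining 12, and the lowest values were those of 1 h. In WT the level of GH3.5 was 1.65 TPM (t0), 3.67 (10 min), 1.38 (30 min), 0.66 (1 h), 9.57 (2 h), 1.84 (4 h), 5.64 (8 h) and 8.86 (12 h). WT therefore also had a higher value at 10 min than at t0 and its lowest at 1 h, but its highest was at 2 h, where both coi1 libraries were low.

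GH3.6, known as DFL1 from a gain-of-function line with short hypocotyls in the light, is the closest relative of GH3.5. In coi1 it stood at 2.75 and 1.74 TPM (t0), 1.97 and 2.03 (10 min), 3.3 and 0.95 (30 min), 1.21 and 1.71 (1 h), 0.98 and 1.88 (2 h), 2.40 and 2.67 (4 h), 2.26 and 3.48 (8 h), 3.66 and 3.49 (12 h). The 12 h libraries were the highest pair, and the 2 libraries of 30 min lay as far apart as nearly the whole range. In WT the level of GH3.6 was 1.65 TPM (t0), 2.04 (10 min), 1.04 (30 min), 0.46 (1 h), 4.04 (2 h), 1.58 (4 h), 4.52 (8 h) and 3.64 (12 h). As for GH3.5, the WT minimum fell at 1 h and the 2 h library was high.

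GH3.3, an auxin-induced member, followed another course. In coi1 it stood at 2.93 and 0.47 TPM (t0), 1.61 and 1.34 (10 min), 2.85 and 1.71 (30 min), 2.16 and 2.07 (1 h), 3.38 and 2.7 (2 h), 4.73 and 4.94 (4 h), 0.48 and 0.35 (8 h), 0.34 and 0.54 (12 h). The 4 h pair lay above all other coi1 libraries, the 8 h and 12 h libraries were low, and the 2 libraries of t0 spanned much of the range. In WT the level of GH3.3 was 0.11 TPM (t0), 0.38 (10 min), 2.99 (30 min), 2.28 (1 h), 1.32 (2 h), 3.74 (4 h), 0.57 (8 h) and 0.96 (12 h), so WT too was highest at 4 h and low at 8 h.

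GH3.2, identified in the activation-tagged dwarf ydk1, was near 0 for most of the course and highest at 4 h. Its levels at 4 h were 0.90 and 1.11 TPM in coi1 and 1.33 TPM in WT. At the other 7 times it stayed between 0.02 and 0.56 TPM in coi1 and between 0 and 0.40 TPM in WT. Its peak came at the time of the GH3.3 peak, and these are the 2 members with the longest identical run of bases. The part of shared reads in this was not tested.

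GH3.1 was nearly silent in coi1, listed at 0 in 10 of 16 libraries and at no more than 0.10 TPM in the others. In WT it stood at 0.02 TPM (t0), 0.09 (10 min), 1.66 (30 min), 0.87 (1 h), 0.09 (2 h), 0.04 (4 h), 0 (8 h) and 0.04 (12 h). Its 2 highest values of the series were thus the WT libraries of 30 min and 1 h, each a single library. GH3.1 did not pass the filter described next and has no test.

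**Figure D2:**
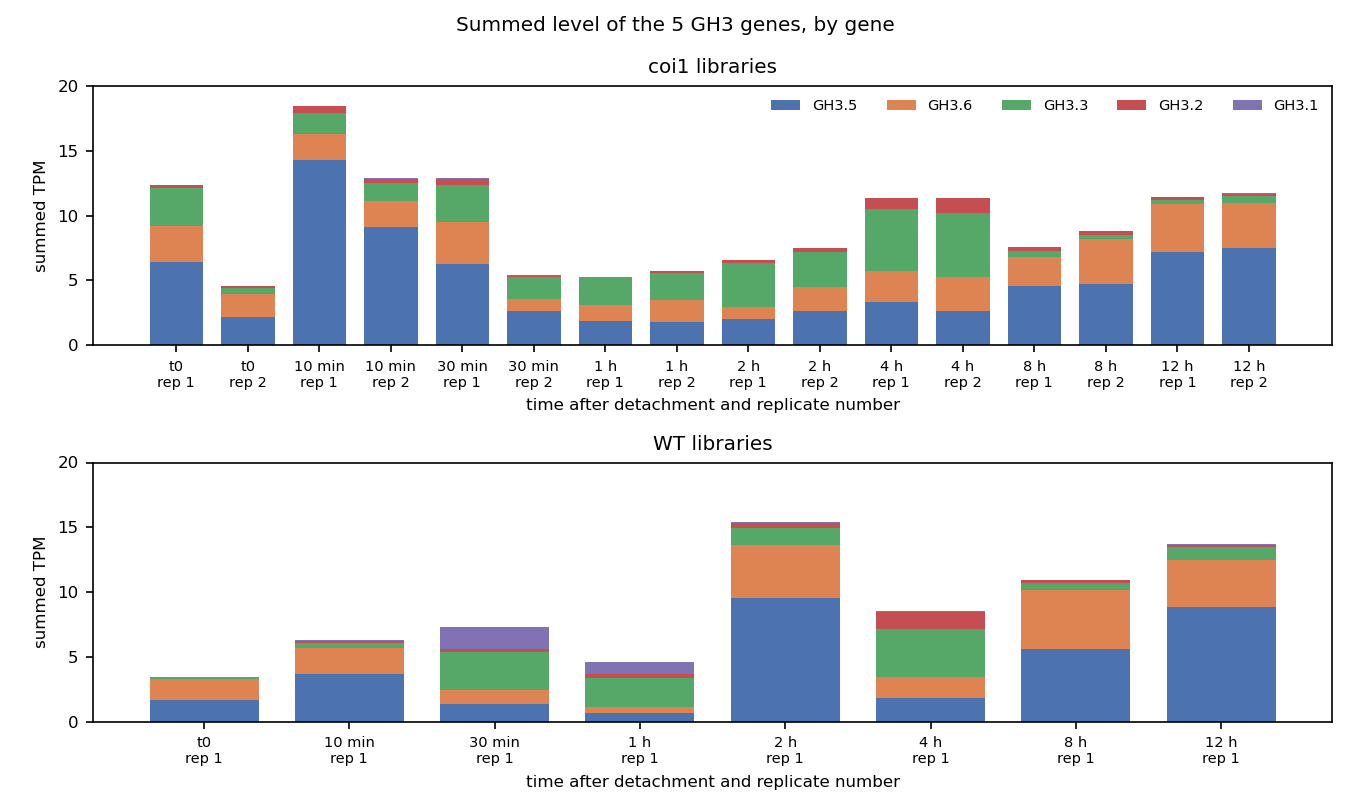
Summed level of the 5 genes (TPM, bars from 0, stacked by gene) in each coi1 library (upper panel, 16) and each WT library (lower panel, 8). GH3.5 made up 77.6% and 70.8% of the sum in the 2 coi1 libraries of 10 min, and GH3.3 made up 41.5% and 43.6% at 4 h in coi1 and 43.8% at 4 h in WT.

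Which of these movements exceeded the error of a fit was asked with limma on log2(TPM + 1), a scale that understates the change of low genes. A gene entered a fit when 2 or more of its libraries held 1 TPM or more, and it was called at a Benjamini-Hochberg adjusted p below 0.05 over all genes tested. GH3.3, GH3.5 and GH3.6 passed the filter in the coi1 fit and in the WT fit (3 of 5 members). GH3.2 passed in the 24-library fit alone, through 1 library of 4 h in each genotype. Members that passed only where they are high had to vary, so their counts are given against the background and carry no further weight.

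In coi1, 2 of the 3 members tested changed over the 8 times, GH3.3 (adjusted p = 0.0071) and GH3.5 (adjusted p = 0.012), while GH3.6 was not called (adjusted p = 0.24). Of the 19323 genes tested, 58.9% were called, so a count of 2 of 3 is near the background. GH3.5 lost the call without coi1 10 min replicate 1 (adjusted p = 0.051), and GH3.6 gained it when either library of 30 min was left out (lowest adjusted p = 0.018).

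Set against t0, 1 of 21 values (3 members at 7 times) was called, GH3.3 at 4 h. In time order, the share of all genes called against t0 was 0.533%, 9.23%, 31.2%, 25.6%, 14%, 14.6% and 21.7%. GH3.3 averaged 4.84 ± 0.15 TPM at 4 h and 1.70 ± 1.74 TPM at t0 (SD, n = 2 each), a difference of 1.28 ± 0.36 on the log2(TPM + 1) scale (SE, adjusted p = 0.041). At 4 h 7.39% of all genes were called higher than at t0. This call is fragile: it was lost when either library of any time other than t0 and 30 min was left out (adjusted p up to 0.18), and without coi1 t0 replicate 2 the difference was 0.57 and was not called (adjusted p = 0.14). Without coi1 t0 replicate 1 it was 1.99 (adjusted p = 0.0015). The t0 pair decided other calls too: GH3.3 was also called at 30 min, 1 h and 2 h, and GH3.5 at 12 h, without coi1 t0 replicate 1, while GH3.3 was called at 8 h and 12 h, and GH3.5 at 1 h, without coi1 t0 replicate 2.

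The later decline of GH3.3 was estimated without the t0 libraries, although these still entered the error shared by all times of the coi1 fit. For each harvest against the one before it, from 30 min on, 1 of 18 values was called, while 10.9%, 6.29%, 13.6%, 7.2%, 10.1% and 0.124% of all genes were called, in time order. The call was the change of GH3.3 between 8 h and 4 h, with 0.42 ± 0.09 TPM at 8 h and 4.84 ± 0.15 TPM at 4 h (SD, n = 2 each). GH3.3 fell by 2.05 ± 0.36 (SE, adjusted p = 0.0072), in a comparison where 2.15% of all genes were called lower. The call was lost without coi1 4 h replicate 1, 4 h replicate 2 or 8 h replicate 2 (adjusted p 0.059, 0.060 and 0.068), with the difference between -1.98 and -2.07. The WT libraries gave 0.57 TPM at 8 h and 3.74 TPM at 4 h.

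The higher level of GH3.5 at 10 min missed the threshold. It averaged 11.7 ± 3.67 TPM at 10 min and 4.32 ± 2.99 TPM at t0 (SD, n = 2 each), a difference of 1.35 ± 0.39 (SE, adjusted p = 0.21). The difference was 1.96 without coi1 t0 replicate 1, and that alone among the alternatives passed (adjusted p = 0.029). At 30 min GH3.5 averaged 4.43 ± 2.55 TPM, a difference of -1.28 ± 0.39 from 10 min (adjusted p = 0.063), which was called without coi1 t0 replicate 1, t0 replicate 2 or 30 min replicate 1 (lowest adjusted p = 0.0078). The difference of GH3.5 between 1 h and 30 min, -0.85 ± 0.39, was called without 30 min replicate 2 (adjusted p = 0.045). GH3.6 gave values between -0.42 at 2 h and 0.51 at 12 h against t0, with adjusted p of 0.33 or more.

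**Figure D3:**
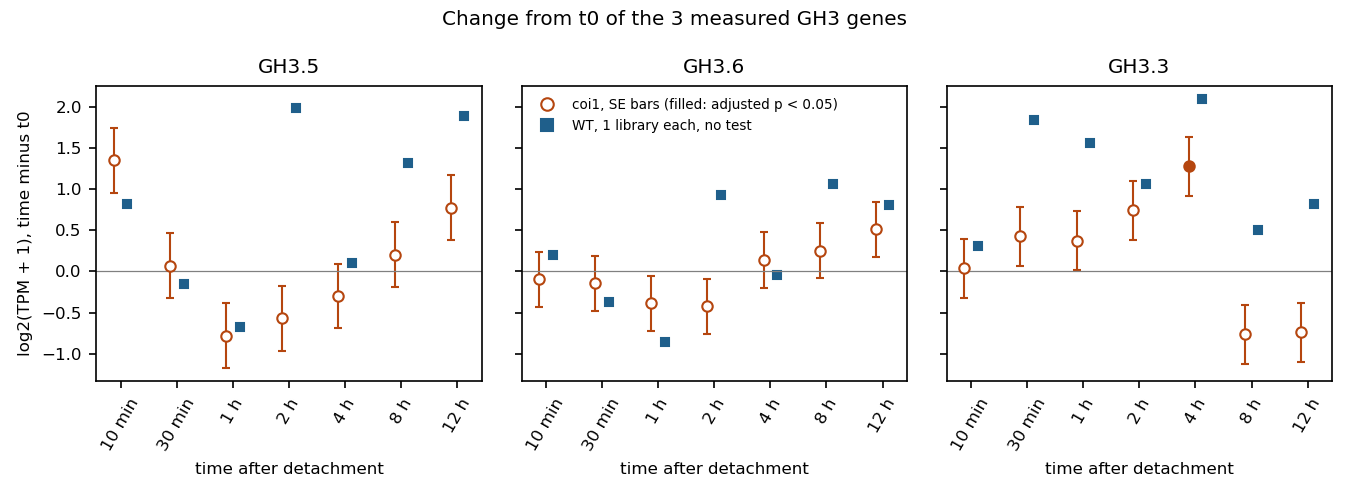
Change from t0 on the log2(TPM + 1) scale at each later time for the 3 members that passed the filter; circles are coi1 estimates with SE bars (2 libraries per time, filled where the adjusted p was below 0.05) and squares are differences of single WT libraries, with no test. GH3.3 at 4 h is the one filled circle, at 1.28, beside 2.09 in WT.

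Ordered by mean level in coi1, GH3.5 at 10 min was separated from the next time, 12 h, and 12 h from 8 h, with no overlap of their libraries. Next in order came 8 h, 30 min, t0, 4 h and 2 h, in which each neighbour overlapped the next, and 1 h lay below them all. GH3.3 at 4 h was separated from 2 h, and 10 min from 12 h, while the order of 2 h, 30 min, 1 h, t0 and 10 min overlapped from neighbour to neighbour and so did 12 h and 8 h. One t0 library of GH3.3, at 0.47 TPM, lay within the late levels. In GH3.6 only 12 h and 8 h, and 10 min and 1 h, were neighbours in the order that did not overlap.

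In WT a single library per time allowed a test of a smooth curve only, with departures from the curve as its error. No member was called (adjusted p = 0.39 for GH3.3, 0.52 for GH3.6 and 0.60 for GH3.5). None of the 18906 genes was called by limma in this fit (0%), while 3458 had an unadjusted p below 0.05. As log2(TPM + 1) differences of single WT libraries from t0, GH3.3 ran from 0.31 at 10 min to 2.09 at 4 h, with all 7 above 0. GH3.5 ran from -0.67 at 1 h to 2.00 at 2 h, and GH3.6 from -0.86 at 1 h to 1.06 at 8 h. These values of WT and those of coi1 each use their own t0 libraries.

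Set against WT over all 8 times, no member was called in coi1 among the 4 that passed the filter. The coi1 minus WT difference was 0.31 ± 0.26 for GH3.5 (95% interval -0.24 to 0.86), 0.26 ± 0.18 for GH3.3 (-0.12 to 0.64), 0.04 ± 0.18 for GH3.6 (-0.33 to 0.41) and 0.02 ± 0.08 for GH3.2 (-0.16 to 0.20). Adjusted p lay between 0.35 and 0.90, and 12.5% of the 19757 genes tested were called. The intervals leave room for differences of up to 0.86 in GH3.5. The error of this fit includes any change of the genotype difference over time as well as the spread between coi1 libraries.

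Within the first hour, taken as the mean over 10 min, 30 min and 1 h, GH3.5 was higher in coi1 than in WT, the 1 member called of 4 tested. In this window 20% of all genes were called, so a count of 1 of 4 is near the background. The GH3.5 difference was 1.10 ± 0.28 on the log2(TPM + 1) scale (SE, 95% interval 0.48 to 1.72, adjusted p = 0.021), and 7.8% of all genes were called higher. The coi1 values were 14.31 and 9.12 TPM at 10 min against 3.67 in WT, 6.23 and 2.63 at 30 min against 1.38 in WT, and 1.88 and 1.80 at 1 h against 0.66 in WT, so that all 6 coi1 libraries lay above the WT library of their time. The same order held before culture, at t0, with 6.43 and 2.20 TPM in coi1 and 1.65 TPM in WT. Without coi1 10 min replicate 1 the difference was 1.00 and was not called (adjusted p = 0.053). The error in this fit comes from the coi1 pairs, and each WT library is assumed to vary like them. Tissue markers moved in this window too: 2 of 5 leaf photosynthesis markers were called higher in coi1 (LHCB1.3 and LHCB5), and the 5 summed to 59008 to 80301 TPM in coi1 and 47654 to 66506 TPM in WT. Of 3 vascular markers, APL was called lower, with the 3 summing to 67.4 to 173 TPM in coi1 and 72.1 to 151 TPM in WT, and none of 3 guard cell markers was called. Their part in the GH3.5 difference was not tested.

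The other 3 members tested gave first-hour differences of 0.41 ± 0.24 for GH3.6 (adjusted p = 0.26), 0.15 ± 0.25 for GH3.3 (0.71) and 0.04 ± 0.12 for GH3.2 (0.84). GH3.6 was called in 1 alternative, without coi1 30 min replicate 2, at 0.60. GH3.1, with no test, had at most 0.10 TPM in the 6 coi1 libraries of this window, against 0.09, 1.66 and 0.87 TPM in WT.

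At 2 h both GH3.5 and GH3.6 stood the other way round. GH3.5 was at 1.99 and 2.61 TPM in coi1 and 9.57 TPM in WT, and GH3.6 at 0.98 and 1.88 TPM in coi1 and 4.04 TPM in WT. With a single WT library used at 2 h this reversal has no replicate check here. In that library COI1 was at 25.95 TPM, against 8.65 at 1 h, 16.71 at 4 h, 22.55 at 8 h and 23.74 at 12 h in WT. Its median-of-ratios rescaling factor was 1.13, against 0.94, 1.02, 1.07 and 1.10 at the same times. Whether the reversal is particular to these genes was not tested.

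Over 4 h, 8 h and 12 h no member was called, with differences of 0.00 ± 0.28 for GH3.5, -0.03 ± 0.24 for GH3.6, -0.10 ± 0.25 for GH3.3 and -0.03 ± 0.12 for GH3.2 (adjusted p of 0.96 or more), and 1.99% of all genes were called. The difference between these windows, a contrast added after the values were seen, was 1.10 ± 0.40 for GH3.5 (adjusted p = 0.13), so the early difference was not shown to exceed the late one. Without coi1 30 min replicate 2 it was 1.26 and was called (adjusted p = 0.040). A test of genotype by time called no member (lowest adjusted p = 0.87) and 0.202% of all genes.

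**Figure D4:**
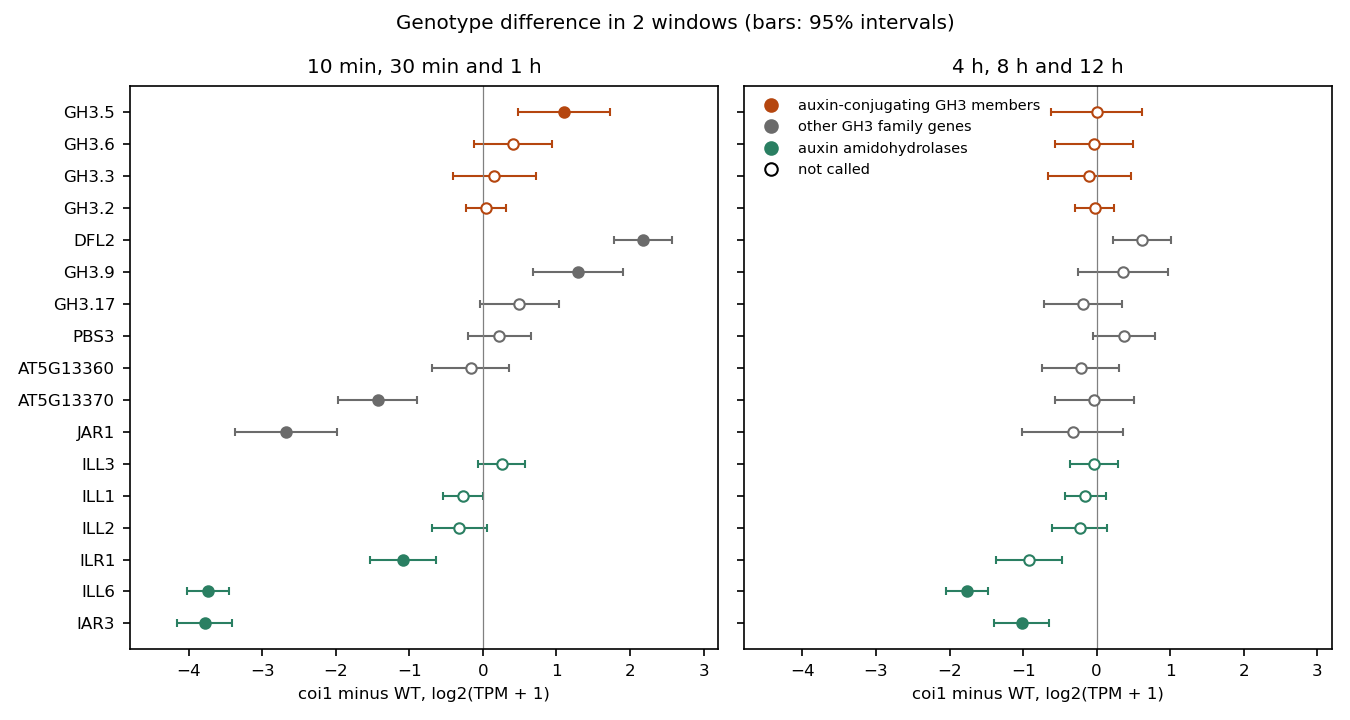
Difference coi1 minus WT on the log2(TPM + 1) scale in the first hour (left) and at 4 to 12 h (right) for the members, the other GH3 genes and the amidohydrolases that passed the filter and reached 1 TPM in both genotypes; bars are 95% intervals and open circles were not called. GH3.5 stands at 1.10 in the first hour and 0.00 later, while DFL2 (2.18), JAR1 (-2.68), ILL6 (-3.74) and IAR3 (-3.78) lay farther from 0.

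Several other GH3 family genes differed between the genotypes in the first hour, some by more than 2 log2 units. A gene that reached 1 TPM in no library of one genotype entered the fit only through the other, where it is high, so such genes are left out of the counts that follow (510 of the 19757 genes tested, among them AT5G51470 of this family). Of the 14 other family genes, 7 remained, and 2 were higher and 2 lower in coi1 in that window, when 20% of all genes were called, 7.8% higher and 12.2% lower, or 7.73% higher and 12% lower of the 19247 genes that reached 1 TPM in both genotypes. JAR1, which makes the active jasmonate conjugate with isoleucine, was lower by 2.68 (adjusted p = 0.00029): at 1 h it averaged 46.7 ± 8.44 TPM in coi1 (SD, n = 2), against 895 TPM in WT. DFL2, named for a dwarf-in-light line and also called GH3-10, was higher by 2.18 (adjusted p = 2.1e-05), with 213 ± 25.8 TPM in coi1 at 1 h (SD, n = 2) and 65.8 TPM in WT. AT5G13370 was lower by 1.43 (adjusted p = 0.0029) and GH3.9 higher by 1.29 (adjusted p = 0.0088). Before culture, at t0, AT5G13370 already stood at 26.15 TPM in WT, while no coi1 library of any time exceeded 12.38 TPM. For DFL2 and JAR1 the first-hour difference exceeded that at 4 to 12 h, by 1.56 (adjusted p = 0.0058) and -2.35 (adjusted p = 0.012), in the added contrast, which called 7.36% of all genes. GH3.4, AT5G13350, AT1G48670 and AT1G48660 were listed at 0 in all 24 libraries.

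Along the coi1 course, DFL2 had the largest changes from t0 of the 7 other family genes tested. It stood 4.59 above t0 at 1 h (adjusted p = 1.9e-05) and 3.03 above t0 at 4 h (adjusted p = 7.5e-05), and fell by 2.28 between 4 h and 8 h (adjusted p = 0.00085). GH3.3 was lower at 8 h than at 4 h as well. At 4 h DFL2 was the 1 of 7 other family genes tested that was called against t0, when 14% of all genes were called, a share near that background.

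**Figure D5:**
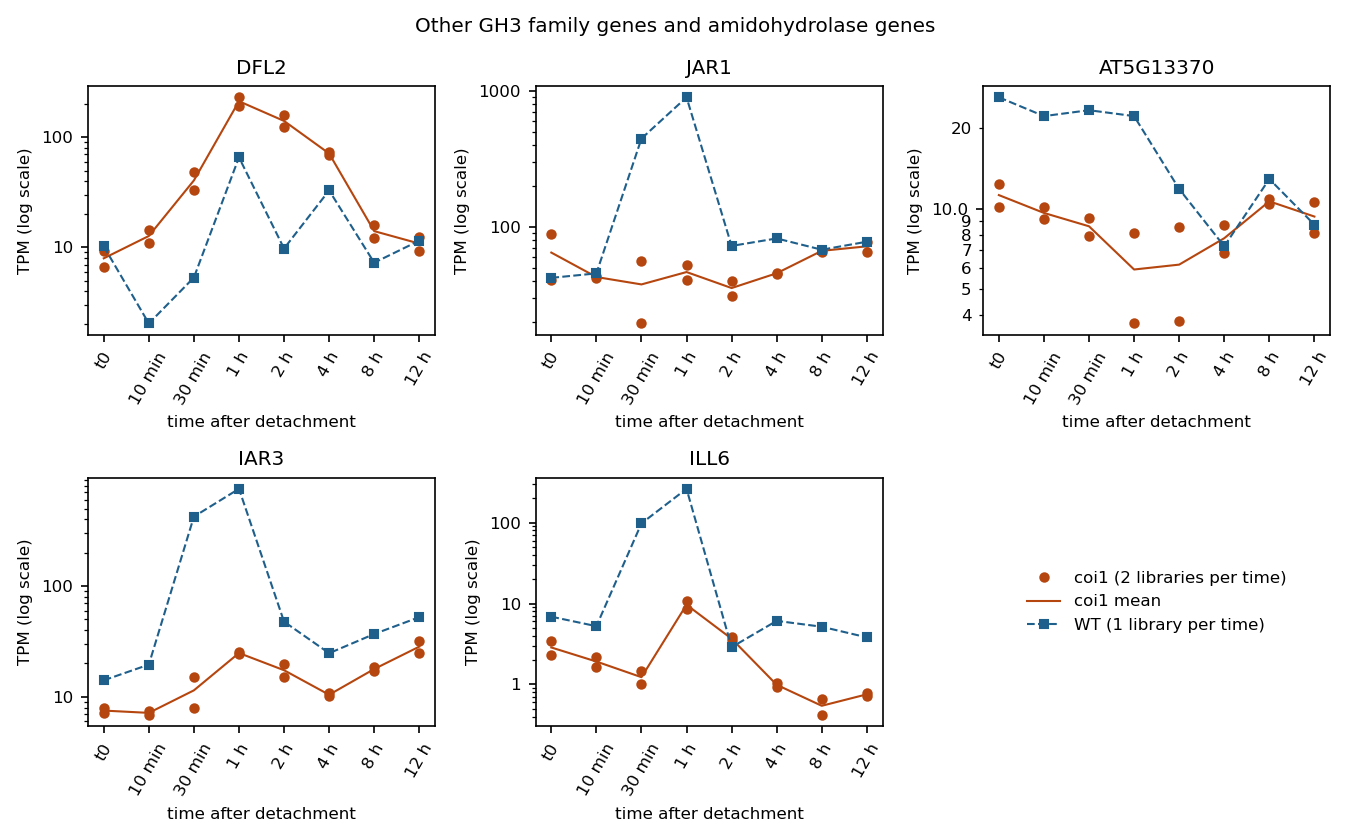
Level (TPM, log axes that differ between panels) of 3 other GH3 family genes and 2 amidohydrolase genes by time; points are single libraries, the solid line is the mean of 2 coi1 libraries and the dashed line joins single WT libraries. JAR1, IAR3 and ILL6 reached 895, 753 and 262 TPM in WT at 1 h, far above both coi1 libraries, while DFL2 was higher in coi1 at 1 h.

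The listed amidohydrolase genes, of a family in which some enzymes release auxin from amino acid conjugates, were in part lower in coi1. In the first hour 3 of the 6 genes that reached 1 TPM in both genotypes were lower and none higher, against 12.2% of all genes called lower and 7.8% higher: IAR3 by -3.78 (adjusted p = 2.2e-07), ILL6 by -3.74 (3.7e-08) and ILR1 by -1.09 (0.0046). ILL5 was at most 0.12 TPM in coi1 and 17.58 TPM in WT, and it passed the filter through 2 WT libraries alone. IAR3 and ILL6 split the isoleucine conjugate of jasmonate. At 1 h IAR3 averaged 24.8 ± 0.87 TPM in coi1 and 753 TPM in WT, and ILL6 9.66 ± 1.47 TPM in coi1 and 262 TPM in WT (SD, n = 2 in coi1). At 4 to 12 h 2 of the 6 were lower, ILL6 (-1.77) and IAR3 (-1.02), when 1.61% of all genes were called lower. In coi1 itself 3 of the 6 amidohydrolase genes tested were higher at 1 h than at t0 and none lower, where 10.7% of all genes were called higher. IAR3 was higher by 1.60 and ILL6 by 1.47 (adjusted p = 0.0011 and 0.00053). ILL3 was higher by 0.66 (adjusted p = 0.034), a call lost in 7 of 22 alternatives.

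Genes of other steps in auxin use and response were counted in the first hour in the same way, against 7.8% of all genes called higher and 12.2% called lower. Of other routes that use auxin, 5 of 7 listed genes were counted, with 1 higher and 1 lower in coi1. IAMT1, which methylates auxin, was higher by 0.87, and AT1G14130, annotated as an iron-dependent oxygenase gene, was lower by 1.82. Among 11 early-response Aux/IAA genes, 4 were higher and none lower in coi1, with IAA3 at 1.62, IAA4 at 1.11 and IAA19 at 1.02. Of 5 TAA and YUC synthesis genes, 2 were higher and none lower, TAA1 at 1.29 and YUC2 at 1.02. Of 10 receptor and ARF genes, AFB1 was higher (1.18) and TIR1 and ARF19 were lower (-0.55 each), which is near the 20% of all genes called. AT1G14120 passed the filter through WT alone (at most 0.68 TPM in coi1), and IAA29 and YUC8 through coi1 alone (at most 0.94 and 0.72 TPM in WT). The call of IAA19 was lost in most alternatives, 13 of 21, with adjusted p up to 0.085. Those of IAMT1 and YUC2 were lost in 2 of 21 and 1 of 20, with adjusted p up to 0.069 and 0.052. The 4 members tested stood at 1.10 (GH3.5), 0.41 (GH3.6), 0.15 (GH3.3) and 0.04 (GH3.2), with GH3.5 alone called. Their median was 0.28, against -0.07 over all genes tested, and it leaves out GH3.1, which had no test.

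Among themselves, GH3.5 varied most like GH3.6 and GH3.2 most like GH3.3. Over the 24 libraries Pearson's r of log2(TPM + 1) was 0.75 for GH3.5 with GH3.6 (0.56 within coi1 and 0.94 within WT) and 0.59 for GH3.2 with GH3.3 (0.51 within coi1 and 0.74 within WT). It was -0.30 for GH3.3 with GH3.5 and -0.34 for GH3.3 with GH3.6. Libraries of one time and pairs of similar sequence share sources of variation, so these are descriptions. The genes most like GH3.5 among 13110 nuclear protein-coding genes with a group mean of at least 10 TPM were AT3G03870 (r = 0.89), NUDT17 (0.84) and ATSERAT3;1 (0.80), and those most like GH3.6 were LSF1 (0.88), AT3G03330 (0.86) and CLV1 (0.85). For GH3.3 they were PP2-B1 (0.82), AT2G41870 (0.79) and AT1G22570 (0.77), and for GH3.2 NF-YC3 (0.82), AT2G22400 (0.77) and AT5G09840 (0.77). For GH3.1 they were BHLH92 (0.99), AT1G75230 (0.98) and AT5G03204 (0.96), and GH3.1 itself exceeded 0.10 TPM in 2 of the 24 libraries.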

How the data were processed

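RNA of 24 libraries (16 coi1, 8 WT) was analysed. The submitters' processing notes name RSEM 1.3.2, STAR 2.7.2b, Trim Galore 0.5.0 and the build TAIR10; their settings, strand mode and annotation version were not given in the sources used here. The authors deposited 1 table of gene TPM for each genotype, with a column for every library, which sums to within rounding of the TPM total. Another 8 WT columns, numbered as replicate 2 of each time, matched no label and were not used, so WT stands on 1 library per time.

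Fits used limma 3.58.1 in R 4.3.3 on log2(TPM + 1), moderated by empirical Bayes along a trend, with Benjamini-Hochberg adjustment over all genes tested. The coi1 fit had 8 time groups (8 residual degrees of freedom), the WT fit a natural spline with 3 degrees of freedom (4 residual), the genotype fit genotype plus time (15 residual), the windows 16 groups (8 residual) and the interaction genotype by spline (16 residual). All were also run on simulated data, and no error rate from that run is reported here. Promoters, coordinates and names came from RefSeq TAIR10.1, whose nuclear chromosome lengths equal those of TAIR10, and 37390 of 37686 loci were found in it. Coding sequences were aligned in pairs with Biopython 1.88.

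Members, lists and tests were chosen with earlier results of these data known. Named genes were all members, up to 4 listed genes per list and comparison with the largest changes, and the 3 genes most correlated with each member. Alternatives were a pseudocount of 0.1, no filter or a filter of 5 TPM, median-of-ratios rescaling, no trend, a spline with 2 degrees of freedom, a replicate block, each library left out, only the 4 libraries compared, and, for genotype over all times, coi1 replicate 1 alone, the 16 group means and each time left out; coi1 replicate 1 alone was also used for genotype by time. Genotype counts of listed genes leave out those that reached 1 TPM in no library of one genotype, a choice made after the data were seen.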

Additional observations from a re-analysis of the deposited data

How the results depend on the processing

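The number of member calls against t0 in coi1 was 1, and it became 0 with a pseudocount of 0.1, 2 with no filter (GH3.1 and GH3.2, both near 0 TPM), 0 with the 5 TPM filter, 0 with only the 4 libraries compared, and 0 to 6 with 1 library left out (6 without coi1 t0 replicate 1, 3 without coi1 t0 replicate 2). Calls over the coi1 course were 2, and became 4 with no filter, 1 with the 5 TPM filter and 1 to 3 with 1 library left out. Calls between consecutive times were 1, and became 3 with no filter, 0 with the 5 TPM filter and 0 to 2 with 1 library left out. First-hour genotype calls were 1, and became 2 with no filter (GH3.5 and GH3.1) and 0 to 2 with 1 library left out. The 5 TPM filter removes GH3.3 and GH3.6 by its construction, and the cause of the other changes was not tested. Counts for the WT course, genotype over all times, genotype at 4 to 12 h and genotype by time were 0 in every alternative run. No called value reversed, and 45 of 1176 alternative values of uncalled member results changed sign.

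With the replicate number as a block, 2 member values between consecutive times were called, since GH3.5 at 30 min minus 10 min gained the call, and the block changed no other member call in coi1. The numbers were not taken to pair the libraries, since the correlation of same-numbered deviations did not exceed 0.1 for every pair of times: over 28 pairs it ran from -0.313 to 0.497 and passed 0.1 in 7. The 3 pairs among t0, 10 min and 30 min were among these 7, at 0.200 to 0.306, as was 1 h with 2 h. No replicate block could be fitted for genotype because the labelled WT libraries carry 1 replicate number; the same-numbered comparison, coi1 replicate 1 alone with WT, called no member over all times or by time. It was not run for the 2 windows, which then have no residual degrees of freedom. Rescaling moved the median change of all genes to 0.01 at 10 min, -0.01 at 30 min, -0.02 at 1 h and -0.01 at 8 h, against -0.09, -0.18, -0.17 and 0.11 as deposited. TPM of unknown depth limit GH3.1 and GH3.2 most.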
